A study of Mus musculus with 12 samples.

Results

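The Hoxb genes described here are the 8 neighbouring homeobox genes Hoxb9, Hoxb8, Hoxb7, Hoxb6, Hoxb5, Hoxb4, Hoxb3 and Hoxb2 on mouse chromosome 11, chosen by gene symbol among 31618 genes with a value in the female and 31669 in the male libraries of an RNA sequencing series of the mouse reproductive tract. Hoxb1 and Hoxb13, the other genes of the cluster, were not among the chosen genes and are described beside them. The 8 genes were examined in 12 libraries from mice of a mixed CD1/129 background aged 3 to 7 months, each library made from the RNA of 3 pooled animals. The 6 female libraries were the wild-type (WT) oviduct and the uterus of WT, Hoxa9,10,11-/- (Hoxa-null), Hoxd9,10,11-/- (Hoxd-null), Hoxa9,10,11-/-d9,10,11+/- (compound Hoxa-null) and Hoxa9,10,11+/-d9,10,11-/- (compound Hoxd-null) mice, the females having been taken in diestrus, and the 6 male libraries were the WT caudal epididymis and the vas deferens of the same 5 genotypes. None of the labelled mutations lies in the Hoxb cluster, and whole organs were used, so every value is a mixture of the cell types of the organ.

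Hox genes encode transcription factors that bind DNA through a homeodomain, and they sit in 4 clusters, Hoxa to Hoxd, whose members with the same number are paralogues. The order of the genes within a cluster follows the order in which they are used along the body axis, with low numbers towards the head and high numbers towards the tail. In the female the Müllerian duct forms oviduct and uterus, in the male the Wolffian duct forms epididymis and vas deferens, and Hox genes with numbers from 9 upwards are known for giving these duct segments their identity.

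The cluster was followed from Hoxb9, its tailward end, to Hoxb2. In the mm9 build Hoxb9 (Gene ID 15417) starts at 96132644, Hoxb8 (Gene ID 15416) at 96143219, Hoxb7 (Gene ID 15415) at 96147960 and Hoxb6 (Gene ID 15414) at 96160485. Hoxb5 (Gene ID 15413) starts at 96164826, Hoxb4 (Gene ID 15412) at 96180053, Hoxb3 (Gene ID 15410) at 96184440 and Hoxb2 (Gene ID 103889) at 96212946. The starts span 80.3 kb. In the RefSeq annotation Hoxb3 overlaps Hoxb4, the non-coding gene Hoxb5os overlaps Hoxb5 and Hoxb6, and the non-coding gene Hoxb3os overlaps Hoxb3 and Hoxb2. Hoxb5os and Hoxb3os were not analysed here. Whether the counting used strand is not given in the sources used here, so reads of these partners cannot be told apart from those of the 4 genes they overlap, and Hoxb3 and Hoxb4 may share reads.

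Every value below is on the authors' log2 scale, on which the middle of a gene's 6 values within a sex is set to 0. The value of a gene therefore says how a library stands to the other libraries of the same sex, and neither levels of different genes nor the sexes can be compared. Each tissue and genotype is represented by 1 library, so differences carry no replicate check and no p-value is given. A difference of at least 2-fold, 1 on the log2 scale, is given as a description of the libraries compared. All 8 genes counted as measured in both sexes, no library stood at the floor of 1 normalised read for any of them, and the background shares below are taken over the 16709 female and 16752 male genes that counted as measured.

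The libraries differed in depth by 1.34-fold in the female and 1.92-fold in the male set, as read from the spacing of low values. For genes low enough to be read in this way, 85.3% of the female and 84.1% of the male values above the floor were multiples of a hundredth of a read. If the Hoxb values lie on the same grid, the lowest library of a gene held at least between 170.0 reads (Hoxb5, Hoxd-null uterus) and 436 reads in the female set, and at least between 257 reads (Hoxb5, Hoxa-null vas deferens) and 604 reads in the male set. Counting error alone then gives a difference between a pair of libraries a 95% interval (exact Clopper-Pearson) of at most 0.32 to either side for female Hoxb5 and 0.26 for male Hoxb5, and less for the other genes. This covers counting error only. The read numbers are lower limits, so each interval is an upper bound on the counting error of a gene, called its counting-error bound below. A difference smaller than its bound may still exceed counting error. The file headers place the WT vas deferens in a lane of its own among the vas deferens libraries, and place 3 libraries (oviduct, epididymis, compound Hoxd-null vas deferens) in another run. The oviduct secretory gene Ovgp1 was 5.14 higher in the oviduct than in the WT uterus, and the 3 genes of sperm cells (Prm1, Prm2 and Tnp2) were higher in the epididymis than in the WT vas deferens by a median of 3.85. Hoxa11 was lower than WT in both Hoxa-null uteri and both Hoxa-null vasa deferentia. What kind of allele was used is not stated, so transcript levels of the targeted genes are no check of the genotypes.

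Along the female tract the tailward Hoxb genes were lower in the WT oviduct than in the WT uterus, and the headward ones differed little. Hoxb9 and Hoxb8, at the tailward end, were at least 2-fold lower in the WT oviduct than in the WT uterus, Hoxb7, Hoxb6 and Hoxb5 were lower than in the WT uterus by less than 2-fold, and Hoxb4, Hoxb3 and Hoxb2 lay within 1.28-fold of the uterus on either side. The median difference, oviduct minus WT uterus, was -0.64 for Hoxb5 to Hoxb8 and 0.17 for Hoxb2 to Hoxb4. The differences did not follow cluster order gene by gene, Hoxb7 (-0.39) being nearer to 0 than Hoxb6 (-0.80) and Hoxb5 (-0.47), and Hoxb3 (-0.07) lying below Hoxb4 (0.36) and Hoxb2 (0.17). The count was 2 of 8 lower and 0 of 8 higher, and among all measured genes 11.6% were at least 2-fold lower and 16.4% at least 2-fold higher. The median was -0.43 over the 8 genes and 0.0025 over all measured genes.

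Hoxb9, known for patterning the ribs and the thoracic skeleton, stood at 0.06 in the WT uterus, -0.06 in the Hoxa-null, -0.23 in the compound Hoxa-null, 0.32 in the Hoxd-null and 0.78 in the remaining (compound Hoxd-null) uterus, and at -1.07 in the oviduct. The oviduct was the lowest library and did not overlap the 5 uteri, the nearest being 0.84 above it. The difference from the WT uterus was -1.14, a 2.20-fold lower level, and it stayed past 2-fold against each uterus except the compound Hoxa-null one, at -0.84. Hoxb8, whose loss causes excessive grooming in mice, stood at 0.35 in the WT, 0.06 in the Hoxa-null, 0.42 in the compound Hoxa-null, -0.37 in the Hoxd-null and -0.06 in the remaining uterus, and at -0.67 in the oviduct. The oviduct was again below all 5 uteri, here by 0.30 from the Hoxd-null uterus, the nearest. Hoxb8 was 2.03-fold lower in the oviduct than in the WT uterus, at -1.02. Against the other uteri it was 2-fold lower only beside the compound Hoxa-null library, at -1.09, and the 2-fold call ended with the median of the 5 uteri as reference, at -0.73.

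The genes in the middle of the cluster lay closer to the uterus. Hoxb7, whose regulatory sequences are widely used to mark the Wolffian duct and its branches, stood at 0.07 in the WT, -0.05 in the Hoxa-null, 0.13 in the compound Hoxa-null, -0.20 in the Hoxd-null and 0.05 in the remaining uterus, and at -0.32 in the oviduct. The oviduct was the lowest library by 0.12, which is below its counting-error bound of 0.20. Hoxb6, expressed in the lateral mesoderm of the embryo, was 0.80 lower in the oviduct than in the WT uterus, but the oviduct, at -0.24, fell inside the range of the 5 uteri, from -0.49 to 0.55. Hoxb5, known from the nervous system of the gut, was 0.47 lower in the oviduct than in the WT uterus and likewise inside the range of the uteri, with the oviduct at 0.07 and the uteri from -0.84 to 0.54. The WT uterus was the highest library for both genes. Against the 4 mutant uteri Hoxb5 was 0.02 to 0.91 higher in the oviduct, and with the median of the 5 uteri as reference its sign turned, to 0.11, while Hoxb6 stood at -0.48.

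At the headward end the differences from the WT uterus were less than 2-fold and of mixed sign. Hoxb4, known for its action in blood stem cells, stood at 0.09 in the WT, -0.09 in the Hoxa-null, 0.21 in the compound Hoxa-null, -1.03 in the Hoxd-null and -0.08 in the remaining uterus, and at 0.44 in the oviduct. The oviduct was the highest library, 0.23 above the nearest uterus and 0.36 above WT. Hoxb2, a gene of the embryonic hindbrain, was also highest in the oviduct, at 0.16 against -0.26 to 0.09 in the uteri. The gap of 0.07 is below its counting-error bound of 0.27. Hoxb3, another hindbrain gene, differed by -0.07 between oviduct and WT uterus and lay inside the range of the uteri.

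**Figure D1:**
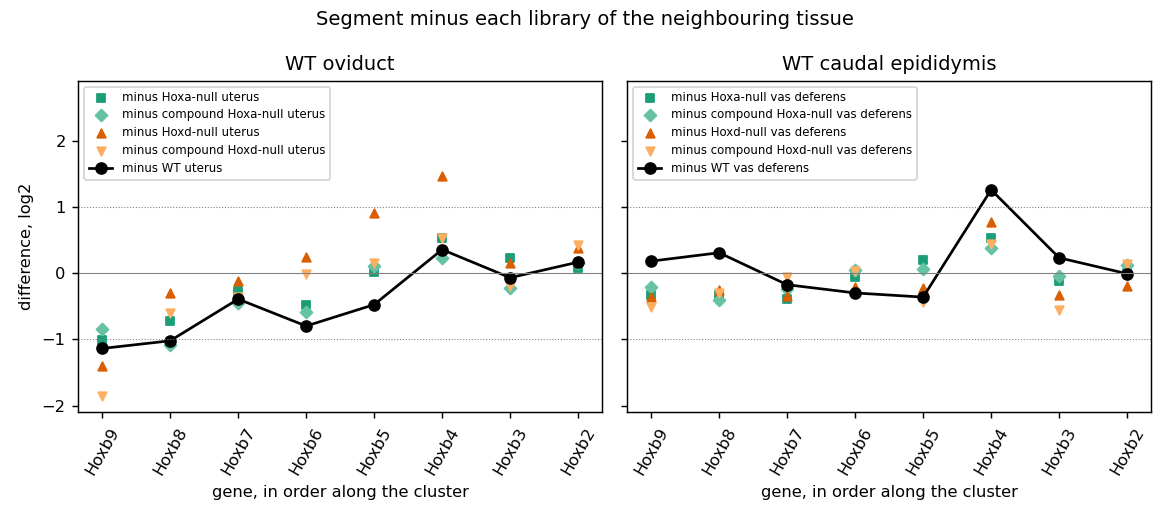
Difference on the log2 scale (y axis) of the WT oviduct (left) and the WT caudal epididymis (right) from each library of the neighbouring tissue, for the 8 genes in cluster order (x axis); the black line is the difference from WT, coloured points are the differences from the 4 mutants, and dotted lines mark 2-fold. In the oviduct Hoxb9 lies between -1.86 and -0.84 against the 5 uteri and Hoxb4 between 0.23 and 1.47, while in the epididymis Hoxb4 lies between 0.38 and 1.26.

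By position against all 5 uteri, the oviduct was below them for 3 of 8 genes (Hoxb9, Hoxb8 and Hoxb7) and above them for 2 of 8 (Hoxb4 and Hoxb2). Among all measured genes 31.5% were below and 33.1% above all 5 uteri, so the counts are near the background. The oviduct also differed from the WT uterus in cell-type markers. All 5 measured markers of ciliated cells were at least 2-fold higher (median 4.89), and 6 of 8 smooth muscle markers were at least 2-fold lower (median -1.12). At the same threshold 3 of 5 mesothelium markers were higher (median 2.49) and 2 of 7 stroma markers lower (median -0.83). Leukocyte markers went both ways, with 3 of 5 lower and 1 of 5 higher (median -1.02). The part of these markers in the Hoxb differences was not tested, and fewer cells of a type cannot be told apart from less RNA per cell. The oviduct and the WT uterus came from different runs.

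The promoters of Hoxb8, lower in the oviduct, and of Hoxb4, which stood higher there, are shown for comparison. They are the 2 of the 8 genes matched to a RefSeq promoter window (GRCm38.p6). The 250 bases before the start of each are shown, 5′ to 3′ on the plus strand, Hoxb8 at chr11:96281655-96281904 and Hoxb4 at chr11:96318017-96318266. Capitals mark matches, on either strand, to the TATA sequence TATAAA, the caudal factor core TTTATG, the nuclear receptor half-site AGGTCA and the Hox-Pbx core TGATTGAT.
Hoxb8: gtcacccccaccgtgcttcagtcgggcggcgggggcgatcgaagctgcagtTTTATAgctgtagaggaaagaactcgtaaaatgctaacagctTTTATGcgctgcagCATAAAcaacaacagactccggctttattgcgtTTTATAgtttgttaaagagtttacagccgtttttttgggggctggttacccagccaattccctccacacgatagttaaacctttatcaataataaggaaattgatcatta
Hoxb4: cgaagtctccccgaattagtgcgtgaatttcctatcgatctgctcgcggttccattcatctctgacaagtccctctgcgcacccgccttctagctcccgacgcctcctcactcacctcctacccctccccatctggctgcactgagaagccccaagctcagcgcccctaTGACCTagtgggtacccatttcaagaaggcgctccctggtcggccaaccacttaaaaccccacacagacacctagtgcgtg
The Hoxb8 window held TTTATG once on each strand, 157 to 152 and 143 to 138 bases before the start, and TATAAA on the minus strand at 199 to 194 and 110 to 105 bases before it. The Hoxb4 window held AGGTCA once, on the minus strand, at 81 to 76 bases before the start. No match overlapped another, and TGATTGAT was in neither window. Of 32851 RefSeq windows of the same length, 10.8% hold TTTATG on either strand, 12.4% TATAAA, 14% AGGTCA and 0.67% TGATTGAT, so a match is a description of these letters and not of binding. The G and C content was 44.4% in the Hoxb8 and 58.0% in the Hoxb4 window, beside a median of 52.4% over all windows.

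Along the male tract Hoxb4 was the 1 gene past 2-fold. Hoxb4 was 2.39-fold higher in the WT caudal epididymis than in the WT vas deferens, and the other 7 genes lay within 1.28-fold. The median difference, epididymis minus WT vas deferens, was -0.24 for Hoxb5 to Hoxb8 and 0.23 for Hoxb2 to Hoxb4, and 0.18 for Hoxb9 alone. With the median of the 5 vas deferens libraries as reference, Hoxb9 (-0.33), Hoxb8 (-0.30), Hoxb7 (-0.23), Hoxb5 (-0.22), Hoxb3 (-0.11) and Hoxb6 (-0.05) were lower in the epididymis, Hoxb2 (0.0048) was level and Hoxb4 (0.54) was higher. Whether the male and female patterns differ was not tested. The count was 1 of 8 higher and 0 of 8 lower, beside 16.1% and 12.5% of all measured genes. The median was 0.09 over the 8 genes and 0.02 over all measured genes.

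Hoxb4 stood at -0.77 in the WT, -0.05 in the Hoxa-null, 0.11 in the compound Hoxa-null, -0.28 in the Hoxd-null and 0.04 in the remaining (compound Hoxd-null) vas deferens, and at 0.49 in the epididymis. The epididymis was the highest library, 0.38 above the nearest vas deferens, and the WT vas deferens the lowest. The difference of 1.26 from WT rested on that low WT library. Against the 4 mutants it was 0.38 to 0.77, and with the median of the 5 vas deferens libraries as reference it was 0.54, so the 2-fold call ended. Hoxb4 was thus the highest in the oviduct and in the epididymis among the libraries of the respective sex. Of the 15461 genes measured in both sexes, 9.61% were highest in both segments in this way.

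Hoxb9 and Hoxb8 did not repeat their oviduct pattern against WT. Hoxb9 stood at -0.45 in the WT, 0.06 in the Hoxa-null, -0.07 in the compound Hoxa-null, 0.09 in the Hoxd-null and 0.24 in the remaining vas deferens, and at -0.27 in the epididymis. The epididymis was below the 4 mutant vasa deferentia by 0.20 to 0.51 and above the WT by 0.18. Hoxb8 stood at -0.59, 0.05, 0.13, -0.02 and 0.02 in the same order and at -0.28 in the epididymis. It had the same arrangement, the epididymis being 0.26 to 0.41 below the mutants and 0.31 above WT. With the median reference both had the sign they have in the oviduct.

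For the remaining genes the epididymis stayed close to the vas deferens. Hoxb7 was lowest in the epididymis, at -0.20 against -0.14 to 0.19, with a gap of 0.06 that is below its counting-error bound of 0.19. Hoxb6, Hoxb5, Hoxb3 and Hoxb2 lay inside the range of the 5 vas deferens libraries, with differences from WT of -0.30, -0.36, 0.23 and -0.0082. In all, 1 of 8 genes was above and 1 of 8 below all 5 vas deferens libraries, where 28.9% and 26.2% of all measured genes were. All 8 smooth muscle markers were at least 2-fold lower in the epididymis than in the WT vas deferens (median -1.62), all 3 sperm cell markers were higher, and 3 of 4 adipocyte (median -1.42) and 3 of 5 mesothelium markers were lower. Of 9 measured accessory gland genes, 6 were at least 2-fold lower and 2 higher (median -2.78). Their part in the Hoxb values was not tested.

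**Figure D2:**
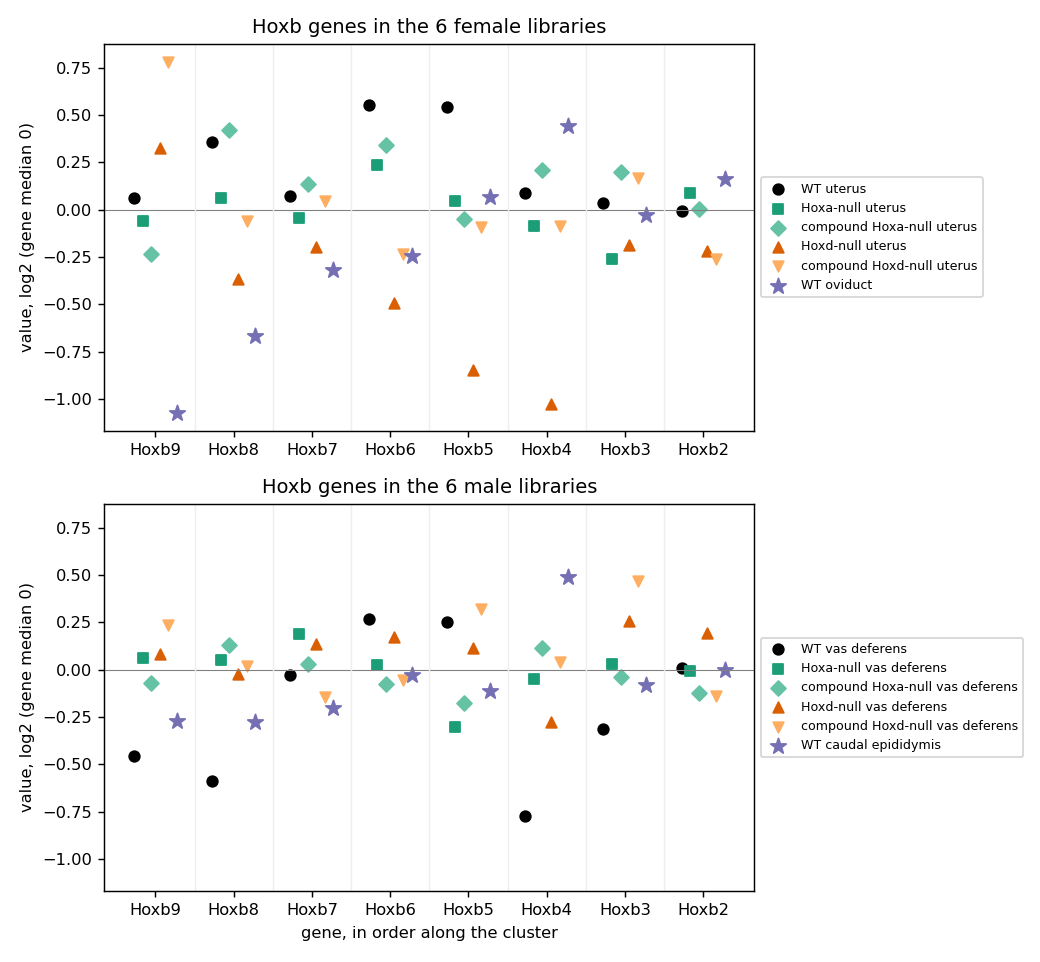
Values of the 8 genes on the authors' log2 scale (y axis, gene median 0 over the 6 libraries of a sex) in each library, in cluster order (x axis), with females above and males below and 1 point per library. The Hoxd-null uterus lies lowest for Hoxb4, Hoxb5 and Hoxb6 at -1.03, -0.84 and -0.49, the oviduct lowest for Hoxb9 at -1.07, and the WT vas deferens lowest for Hoxb9, Hoxb8, Hoxb4 and Hoxb3.

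In the mutant uteri the Hoxd-null library carried the largest Hoxb differences, in a run of neighbouring genes. Hoxb6, Hoxb5 and Hoxb4 were 2.07-fold, 2.61-fold and 2.16-fold lower than in the WT uterus, Hoxb8 was lower by 0.72, and Hoxb7, Hoxb3 and Hoxb2 were lower by 0.21 to 0.27. Hoxb9, at the end of the cluster, was 0.26 higher. The WT and Hoxa-null uteri shared 1 lane and the other 3 uteri another, so the difference of the Hoxd-null uterus from WT crosses lanes. The count was 3 of 8 genes at least 2-fold lower and 0 of 8 higher, beside 5.80% and 6.07% of all measured genes, and the median was -0.50 over the 8 genes and -0.0054 over all measured genes.

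For Hoxb5 the 5 uteri stood at 0.54 (WT), 0.04 (Hoxa-null), -0.05 (compound Hoxa-null), -0.84 (Hoxd-null) and -0.09 (compound Hoxd-null). The Hoxd-null library was 0.75 below the next lowest uterus, and the other mutants were close together. For Hoxb4, whose values are given above, the Hoxd-null library was 0.94 below the next lowest uterus, and the other 4 uteri spanned -0.09 to 0.21. Hoxb6 stood at 0.55, 0.23, 0.34, -0.49 and -0.23 in the same order of genotypes. The Hoxd-null library was only 0.26 below the compound Hoxd-null one, so for Hoxb6 both Hoxd-null uteri were low. With the median of the other 4 uteri as reference, Hoxb4 kept a 2-fold difference at -1.03 while Hoxb5, at -0.84, and Hoxb6, at -0.78, did not.

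The compound Hoxd-null uterus, which carries the same Hoxd genotype with 1 mutant Hoxa copy besides, had no gene 2-fold from WT in either direction, beside 6.28% of all measured genes lower and 7.88% higher. Hoxb4 and Hoxb5 were 0.94 and 0.75 higher there than in the Hoxd-null uterus. Hoxb6 (-0.79 from WT) and Hoxb5 (-0.63) were its lowest genes, and Hoxb9 (0.72) its highest, 1.65-fold above WT. The Hoxa-null uterus, with values from -0.50 to 0.09 against WT, and the compound Hoxa-null uterus, with -0.59 to 0.16, also held no gene 2-fold from WT. The background was 7.21% lower and 5.88% higher for the Hoxa-null and 6.83% lower and 8.34% higher for the compound Hoxa-null uterus. Hoxb5 was the lowest gene against WT in both, at -0.50 and -0.59.

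Hoxb5 and Hoxb6 were the genes that lay below WT in all 4 mutant uteri, beside 16.7% of all measured genes, and 0 of 8 lay above WT in all 4, beside 16.4%. The 4 differences share the WT library, in which both genes were higher than in the other 5 libraries. Sorted by the mutated cluster, Hoxb8, Hoxb6, Hoxb5 and Hoxb2 were lower in both Hoxd-null uteri than in the other 3, at any distance, which 13.7% of all measured genes were. For Hoxb5 (-0.09 and -0.05), Hoxb8 (-0.06 and 0.06) and Hoxb2 (-0.22 and -0.01) the libraries on either side of the gap were close. These gaps were smaller than the counting-error bounds of 0.32, 0.19 and 0.27. Hoxb9 was higher in both Hoxd-null uteri than in the other 3, which 14.5% of all measured genes were. In both Hoxa-null uteri Hoxb9 was lower and Hoxb2 higher than in the other 3, beside 13.6% and 14.6% of all measured genes. The Hoxb2 gap, from 0.0051 in the compound Hoxa-null uterus to -0.0063 in the WT, was also smaller than its bound. Within the lane that holds 3 uteri, both Hoxd-null uteri were below the compound Hoxa-null one for 7 of 8 genes, beside 36.8% of all measured genes, and above it for Hoxb9, beside 38.5%. For Hoxb7, Hoxb5, Hoxb3 and Hoxb2 the gap within this lane was smaller than the counting-error bound. At 2-fold 0 of 8 genes were below or above within this lane, beside 5.12% and 4.43%. None of the separations over all 5 uteri reached 2-fold, and among all measured genes 0.311% did so for lower and 0.904% for higher values in the Hoxd-null uteri, and 1.07% and 0.958% in the Hoxa-null uteri. A 2-fold gap between WT and all 4 mutants was likewise seen for 0 of 8 genes, beside 1.16% of all measured genes with the mutants above and 1.21% with the mutants below. The order of the uteri for Hoxb9 ran from the compound Hoxa-null (-0.23) and Hoxa-null (-0.06) through WT (0.06) to the Hoxd-null (0.32) and compound Hoxd-null (0.78) library. The steps between the first 3 were smaller than its counting-error bound of 0.20.

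The Hoxd-null uterus also differed from WT in cell-type markers. At least 2-fold higher were 4 of 7 stroma markers (median 1.08) and 3 of 5 leukocyte markers (median 1.15), while 0 of 8 smooth muscle and 0 of 8 epithelium markers differed by 2-fold. In the compound Hoxd-null uterus, where Hoxb4 and Hoxb5 were not 2-fold lower, 3 of 5 leukocyte markers were higher as well (median 1.25), 0 of 7 stroma markers were, and all 4 adipocyte markers were lower (median -2.98). In the compound Hoxa-null uterus, which had no Hoxb gene 2-fold from WT, 5 of 7 stroma markers were higher. The part of these markers in the Hoxb values was not tested.

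**Figure D3:**
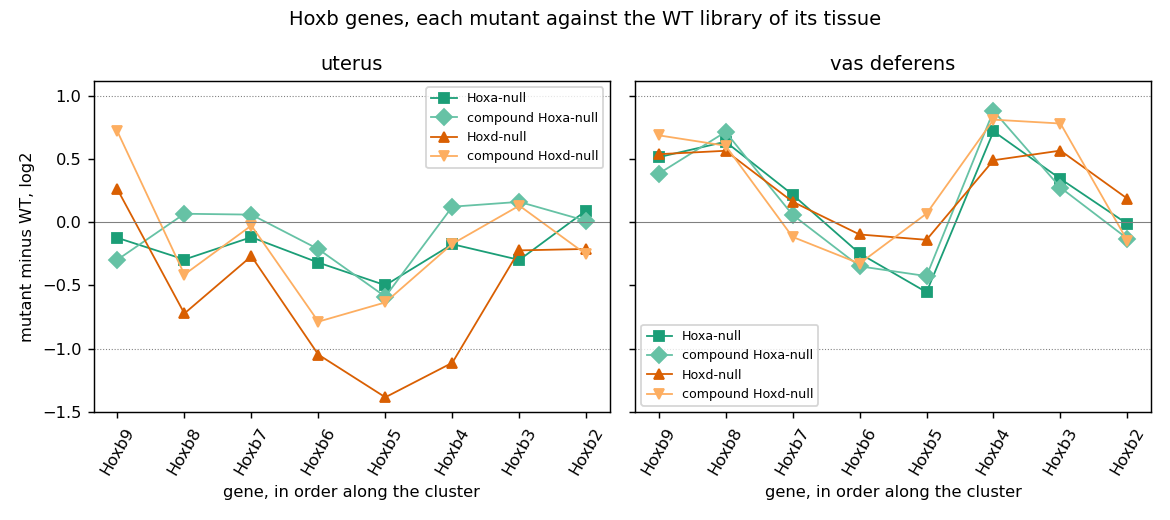
Mutant minus WT on the log2 scale (y axis) for the 8 genes in cluster order (x axis), in the uterus (left) and the vas deferens (right), with 1 line per mutant library and dotted lines at 2-fold. In the uterus the Hoxd-null line falls to -1.39 at Hoxb5, and in the vas deferens all 4 lines, which share the WT library, are above 0 at Hoxb9, Hoxb8, Hoxb4 and Hoxb3 and within 2-fold throughout.

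In the vas deferens no Hoxb gene was 2-fold from WT in any of the 4 mutants. The differences ran from -0.55 (Hoxb5, Hoxa-null) to 0.88 (Hoxb4, compound Hoxa-null). Among all measured genes the Hoxa-null vas deferens had 10.8% higher and 8.29% lower by 2-fold, the compound Hoxa-null 13.9% and 8.19%, the Hoxd-null 3.27% and 4.75%, and the compound Hoxd-null 7.56% and 5.16%. The median over the 8 genes was 0.28, 0.17, 0.34 and 0.34 in that order, and over all measured genes it was between -0.0047 and 0.01.

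The WT vas deferens lay at an end of the range of the 5 libraries for several genes. It was below all 4 mutants for Hoxb9, Hoxb8, Hoxb4 and Hoxb3, and above all 4 for Hoxb6. Among all measured genes 20% had the 4 mutants above WT and 20.5% below, and at a 2-fold gap 1.03% and 0.776% did, against 0 of 8 Hoxb genes. For Hoxb8 the WT stood at -0.59 and the 4 mutants between -0.02 and 0.13, a range of 0.15 that is below its counting-error bound of 0.20. Hoxb3 stood at -0.31 in the WT, 0.03 in the Hoxa-null, -0.04 in the compound Hoxa-null, 0.25 in the Hoxd-null and 0.47 in the remaining vas deferens, and at -0.08 in the epididymis. The WT was lowest and both Hoxd-null libraries highest. Hoxb9 and Hoxb3 were the genes with both Hoxd-null vasa deferentia above the other 3 at any distance, beside 12.6% of all measured genes, and 0 of 8 had both below, beside 12.8%. For Hoxb9 the gap, from 0.09 in the Hoxd-null to 0.06 in the Hoxa-null library, was smaller than its counting-error bound of 0.19. At 2-fold 0 of 8 were above or below, beside 0.143% and 0.621%.

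Hoxb6 ran the other way, with 0.27 in the WT, 0.02 in the Hoxa-null, -0.08 in the compound Hoxa-null, 0.17 in the Hoxd-null and -0.06 in the remaining vas deferens, and -0.03 in the epididymis. The WT was the highest library of the 6, and it was so for Hoxb6 in the female set too. Hoxb6 was below the WT of its tissue in 8 of 8 mutant libraries, with 4 sharing each WT library, and by 2-fold in 1 of them. Of the genes measured in both sexes, 3.74% were below WT in 8 of 8. The Hoxb6 difference in the Hoxd-null vas deferens, -0.10, was smaller than its counting-error bound of 0.17. Hoxb5 was below WT in 7 of 8, where 10.5% of genes were so in at least 7. Its difference in the Hoxd-null vas deferens, -0.14, was also smaller than its counting-error bound of 0.26. In the vas deferens Hoxb5 stood at 0.25 (WT), -0.30 (Hoxa-null), -0.17 (compound Hoxa-null), 0.11 (Hoxd-null) and 0.32 (compound Hoxd-null), so both Hoxa-null libraries were below the other 3, as 21.8% of all measured genes were. Both Hoxa-null libraries were above the other 3 for Hoxb8, as 23.3% of all measured genes were. The Hoxb8 gap, from 0.05 in the Hoxa-null to 0.02 in the compound Hoxd-null library, was smaller than its counting-error bound of 0.20. At 2-fold 0 of 8 genes had both Hoxa-null libraries above or below, beside 4.10% and 2.25%. Over the 5 libraries Hoxb7 spanned 0.34 and Hoxb2 0.33.

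The lane of the WT vas deferens held no other vas deferens library, so lane and genotype cannot be told apart there. Genes of the accessory glands differed between the vas deferens libraries in both directions. Of 9 measured, the Hoxa-null vas deferens had 5 at least 2-fold above and 2 below WT (median 2.35), and the compound Hoxa-null one 4 above and 2 below (0.97). The Hoxd-null vas deferens had 0 above and 5 below (-1.06), and the compound Hoxd-null one 0 above and 4 below (-0.71). Pbsn and Tgm4, singled out after their values were seen, were the 2 that were lower in all 4 mutants. Pbsn, a secretory gene of the prostate, stood at 8.32 in the WT vas deferens and at -0.69 to 2.48 in the other 5 male libraries, and Tgm4, a transglutaminase of the same gland, at 7.16 against -1.60 to 0.50. All 4 adipocyte markers were at least 2-fold higher than in WT in the Hoxa-null (median 2.40), the compound Hoxa-null (2.54) and the compound Hoxd-null (2.14) vas deferens, and 0 of 4 in the Hoxd-null one (0.11). Smooth muscle markers had medians of -0.92, -1.25, -0.53 and 0.17 in the same libraries. All 3 sperm cell markers were at least 2-fold lower than WT in the Hoxa-null (median -4.62), compound Hoxa-null (-5.13) and Hoxd-null (-1.73) vas deferens, and 0 of 3 in the compound Hoxd-null one (0.25). The compound Hoxa-null vas deferens had 4 of 5 mesothelium markers lower (median -1.63), the Hoxa-null one 2 of 5, the compound Hoxd-null one 1 of 5 and the Hoxd-null one 0 of 5. The part of these tissues and cells in the low WT values of Hoxb9, Hoxb8, Hoxb4 and Hoxb3 was not tested.

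The 2 genes at the ends of the cluster were at or near the floor. Hoxb1, next to Hoxb2 and a gene of the early hindbrain, was above the floor of 1 normalised read in the oviduct, at 2.68 normalised reads from 3 reads, and on 1 read in the compound Hoxa-null uterus, and it was at the floor in the other 4 female libraries and without any difference between the 6 male ones. Hoxb13 (start 96055675), a marker of the prostate and the tail bud, did not differ between the 6 female libraries, was at the floor in 5 male libraries and reached 8.85 normalised reads, from 12.6 reads, in the WT vas deferens. Neither gene reached the minimum of 20 normalised reads.

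The genes flanking the 8 Hoxb genes did not follow the Hoxb pattern as a group. Gm53 (start 96113083) and Gm11539 (start 96109909) lie between Hoxb9 and Hoxb13. Beside Hoxb9, the predicted gene Gm53 differed by -0.40 between oviduct and WT uterus, Gm11539 by -1.20, and Ttll6, which encodes a tubulin-modifying enzyme of cilia, was higher by 7.56. Beside Hoxb2, Skap1, an adaptor of T cells, was 0.99 higher in the oviduct, and Snx11, a sorting nexin, differed by -0.17. Gm11538, Gm11531 and Gm11529 did not count as measured in either sex and had the same deposited value in all libraries. In the Hoxd-null uterus, where Hoxb4 to Hoxb6 were low, Gm53 was at -0.24, Gm11539 at 0.78, Ttll6 at -1.72, Skap1 at 0.53 and Snx11 at 0.01 against WT. Hoxb9 was at 0.26 there. In the compound Hoxd-null uterus Gm53 was at 0.38, Gm11539 at 0.58, Ttll6 at -0.55, Skap1 at -0.21 and Snx11 at 0.08, beside 0.72 for Hoxb9. In the vas deferens Gm53, the nearest neighbour of Hoxb9, was 0.13 to 0.56 above WT in the 4 mutants, where Hoxb9 was 0.38 to 0.69 above. The other measured neighbours had mixed signs there. In the Hoxa-null, compound Hoxa-null, Hoxd-null and compound Hoxd-null libraries, in that order, Gm11539 stood at 1.20, 1.16, 0.50 and -0.39 against WT, Ttll6 at 3.96, 6.45, -0.0025 and 0.37, Skap1 at 0.76, 1.31, 1.42 and 2.38, and Snx11 at -0.03, -0.17, -0.19 and -0.79.

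Over the genotypes the Hoxb genes spanned less than the Hoxa and Hoxc genes. Over the 5 uteri the distance between the lowest and the highest library had a median of 0.90 for the 8 Hoxb genes, 2.35 for 10 measured Hoxa, 3.37 for 7 Hoxc and 0.89 for 6 Hoxd genes, and 0.71 for all measured genes. Over the 5 vas deferens libraries the medians were 0.66 for Hoxb, 1.72 for 10 Hoxa, 2.05 for 6 Hoxc and 1.07 for 8 Hoxd genes, and 0.78 for all measured genes. The range reached 2-fold for 4 of 8 Hoxb genes in the uterus (Hoxb4, Hoxb5, Hoxb6 and Hoxb9) and for 0 of 8 in the vas deferens, beside 35.5% and 38.8% of all measured genes. The Hoxa and Hoxd clusters include the mutated genes, so their ranges hold the mutations themselves. Hoxb7, with 0.33 in the uterus and 0.34 in the vas deferens, and Hoxb2, with 0.35 and 0.33, had the narrowest ranges of the 8 in these 2 tissues.

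**Figure D4:**
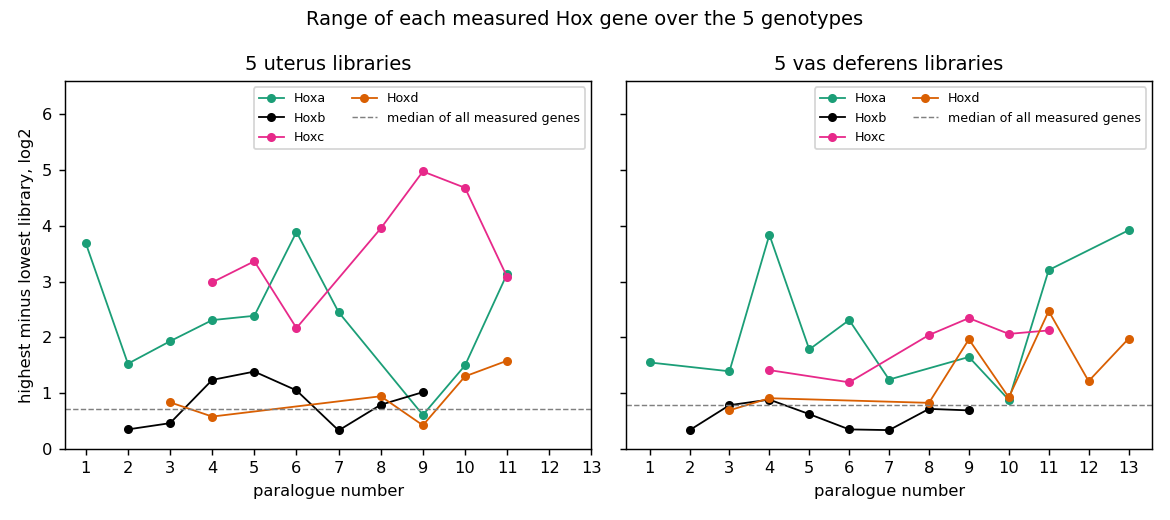
Highest minus lowest library on the log2 scale (y axis) over the 5 genotypes of uterus (left) and vas deferens (right) for each measured Hox gene, by paralogue number (x axis) and cluster (colour); the dashed line is the median of all measured genes, 0.71 and 0.78. Hoxb genes range from 0.33 to 1.39 in the uterus and from 0.33 to 0.88 in the vas deferens, while Hoxc genes reach 4.98 and 2.35.

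Between tract segments the Hoxa and Hoxc paralogues of the Hoxb genes differed by more. In the oviduct Hoxb9 (-1.14) had the sign of Hoxa9 (-1.89) and Hoxd9 (-2.21), while Hoxc9 was 3.88 higher than in the WT uterus. Hoxb4 (0.36) lay between Hoxd4 (-0.27) and Hoxa4 (2.91), with Hoxc4 at 4.91. Hoxb8 (-1.02) was lower where Hoxc8 was 4.52 higher and Hoxd8 stood at -0.15. Over the measured paralogues with numbers from 2 to 9, the median difference in the oviduct was -0.43 for Hoxb, 2.09 for 7 Hoxa, 4.52 for 5 Hoxc and -0.21 for 4 Hoxd genes. The WT uterus was the lowest of the 5 uteri for Hoxa2, Hoxa3, Hoxa4, Hoxa5, Hoxa7, Hoxc4, Hoxc5 and Hoxc9. In the epididymis the medians were 0.09 for Hoxb, 1.25 for 6 Hoxa, 1.42 for 4 Hoxc and 0.34 for 4 Hoxd genes. There Hoxb4 (1.26) was higher than in the WT vas deferens together with Hoxa4 (3.06), with Hoxc4 at 0.80 and Hoxd4 at 0.14. These differences rest on the WT vas deferens. It was the lowest of the 5 vas deferens libraries for Hoxa3, Hoxa4, Hoxa5, Hoxa7, Hoxa9, Hoxc4, Hoxc6, Hoxc8 and Hoxc9. The epididymis lay inside the range of the 4 mutants for Hoxa5 (0.04, mutants -0.34 to 0.38) and Hoxc6 (-0.01, mutants -0.21 to 0.69). For Hoxa3 it lay above them (1.53, mutants -1.02 to 0.22).

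In the mutants the medians of the Hoxa and Hoxc genes were likewise farther from 0. In the compound Hoxa-null uterus the median over paralogues 2 to 9 was 0.04 for Hoxb, beside 2.31 for Hoxa, 3.30 for Hoxc and -0.45 for Hoxd genes, and in the Hoxd-null uterus it was -0.50 for Hoxb, 0.55 for Hoxa, 0.96 for Hoxc and -0.26 for Hoxd genes. In the compound Hoxd-null vas deferens it was 0.34 for Hoxb, 1.45 for Hoxa, 1.73 for Hoxc and -0.02 for Hoxd genes. Each median rests on the WT library of its tissue, which was low for many Hoxa and Hoxc genes, as given above. These are descriptions of 1 library each, and the difference between clusters was not tested.

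**Figure D5:**
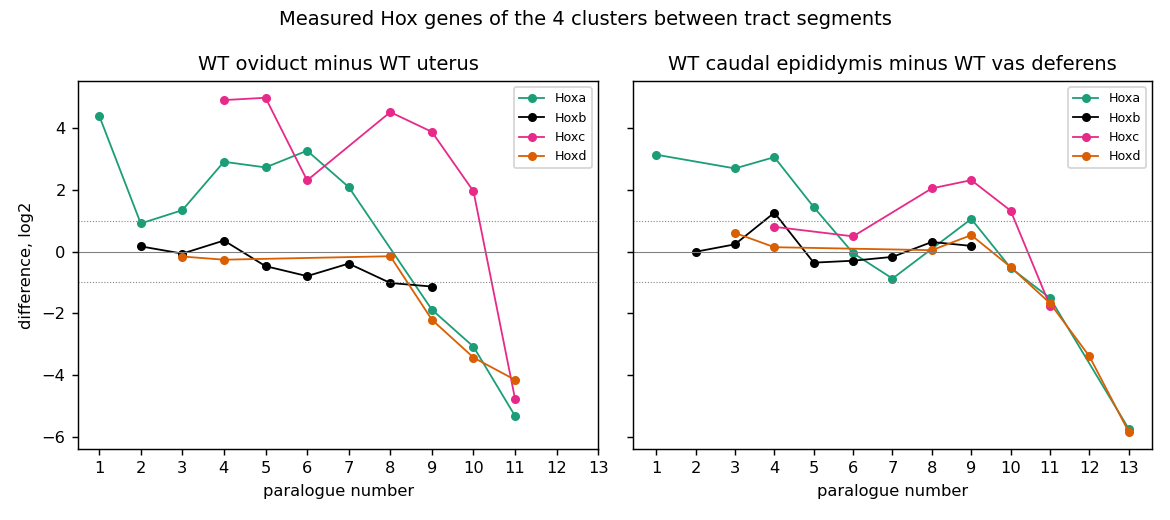
Difference on the log2 scale (y axis) of the WT oviduct from the WT uterus (left) and of the WT caudal epididymis from the WT vas deferens (right) for each measured Hox gene, by paralogue number (x axis) and cluster (colour), with dotted lines at 2-fold. The Hoxb line runs from 0.17 at Hoxb2 to -1.14 at Hoxb9 in the oviduct, and in the epididymis its single 2-fold difference is Hoxb4 at 1.26.

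Genes that work with Hox proteins or on Hox clusters were examined in the same libraries. Of 9 cofactors of the Meis, Pbx and Pknox families, which bind DNA together with Hox proteins, 1 was at least 2-fold higher in the oviduct than in the WT uterus (Pbx3, 1.57) and 1 lower (Meis3, -1.43). In the epididymis 1 was higher (Pbx4, 2.79) and 2 were lower (Meis1, -1.56, and Meis2, -1.33), and in the Hoxd-null uterus 0 of 9 differed by 2-fold. The caudal factors Cdx1, Cdx2 and Cdx4, which act on Hox genes in the embryo, were not measured, with at most 1 read of Cdx1 or Cdx4 in any library.

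Of 14 genes of the retinoid pathway, through which retinoic acid acts on Hox genes, 1 was higher in the oviduct (Crabp2, a retinoic acid binding protein, 1.48) and 1 lower (Stra6, a retinol carrier receptor, -1.69). In the Hoxd-null uterus 1 was lower (Cyp26a1, an enzyme that breaks down retinoic acid, -3.27) and 0 higher. Cyp26a1 was low against WT in every other mutant uterus too. Its differences were -4.03 with the compound Hoxd-null, -3.15 with the Hoxa-null and -3.64 with the compound Hoxa-null genotype. Hoxb5 and Hoxb6 were below WT in those uteri too, by less than 2-fold. In the epididymis 3 of 13 measured genes were higher, Crabp2 (2.92), Cyp26b1 (2.13) and Aldh1a1 (1.33), and 0 lower. Polycomb genes keep Hox genes silent, and of 13 of them Ezh2 (-1.21) and Cbx2 (-1.03) were at least 2-fold lower in the oviduct, with 0 of 13 at 2-fold in the epididymis or the Hoxd-null uterus. Of 6 measured Trithorax genes, which keep Hox genes active, 0 differed by 2-fold in these 3 comparisons. In the vas deferens the Polycomb gene Cbx2 exceeded WT by 1.21 with the Hoxa-null and by 1.42 with the compound Hoxa-null genotype. The Trithorax gene Mll1 exceeded WT by 1.20 with the Hoxd-null genotype and just reached 2-fold with the compound Hoxd-null genotype. The part of any of these genes in the Hoxb values was not tested.

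The mean profile of the 8 genes over the 6 female libraries was compared with that of 14344 other named genes by the root mean square distance on the log2 scale, each gene being centred on its mean. The nearest were Rad52 (0.05), a DNA repair gene, Dusp11 (0.06), Dusp8 (0.06), Ubap2 (0.07) and Rasa2 (0.07). Hoxb7 was nearest to the mean among the 8 genes (0.10) and Hoxb9 farthest (0.57). In the male set, over 14279 genes, the nearest were Elf1 (0.02), Prpf4 (0.03), Pxn (0.04), Sf1 (0.04) and Ddx42 (0.04), with Hoxb9 nearest (0.14) and Hoxb4 farthest (0.36) among the 8. The mean male profile was narrow, from -0.18 in the WT vas deferens to 0.11 in the compound Hoxd-null one, so genes that barely varied lie close to it. These genes share only a profile over 6 libraries.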

How the data were processed

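Total RNA was prepared with a Qiagen RNeasy Mini kit and sequenced from Illumina TruSeq libraries, per the labels' protocols. TopHat and the mm9 build were used, per the submitters' processing notes. The sources used here do not give counting tool, annotation or normalisation. The deposited values are log2 values, which the authors centred on the middle of a gene's 6 values within a sex. The spacing of low values showed a scaling factor for each library and a floor of 1 normalised read, and gave the relative depth. Total counts are unknown.

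Libraries were levelled by shifts of at most 0.00565 on the log2 scale. A gene with libraries at the floor counted as measured from 20 normalised reads in its highest library, and a gene with none there unless its values matched read numbers below that minimum. The steps were tested on simulated data. Differences were taken within a sex, from the WT library of the tissue, at 2-fold, with Python 3.11.15, pandas 2.3.3 and numpy 2.4.6. Genes named were the 8 members, Hoxb1, Hoxb13, the 5 nearest genes on each side, paralogues, the 5 nearest profiles per sex and up to 4 members of a list at 2-fold. Pbsn and Tgm4 were added after their values were seen. The members and lists were chosen with earlier results of these data known. Alternatives were other references, thresholds, unshifted values and no minimum. The result of 1 listed gene is not reported here.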

Additional observations from a re-analysis of the deposited data

How the results depend on the processing

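The counts of members at 2-fold were the same with the values as deposited and with no minimum level. With the median of the 5 uteri, or any mutant uterus, as reference in place of WT, 1 gene in place of 2 was lower in the oviduct, and against the Hoxd-null uterus 1 in place of 0 was higher. The gene that stayed lower was Hoxb8 (-1.09) against the compound Hoxa-null uterus and Hoxb9 against each of the other references. With the median of the other 4 uteri as reference, 1 in place of 3 members was lower in the mutant uteri. With the median of the 5 vas deferens libraries, or any mutant vas deferens, as reference, 0 in place of 1 was higher in the epididymis. At 1.5-fold, 7 differences in place of 3 were lower and 1 in place of 0 higher over the 4 mutant uteri, and 8 in place of 0 were higher over the 4 mutant vasa deferentia. At any distance in place of 2-fold, the Hoxa-null uteri had 1 gene above and 1 below the others, the Hoxd-null uteri 1 above and 4 below, the Hoxa-null vasa deferentia 1 above and 1 below, and the Hoxd-null ones 2 above, in place of 0 each. Apart from the wider or narrower threshold itself, the cause was not tested. References that were single mutant libraries were chosen after seeing the data. Of 80 single differences, all 80 moved by less than the counting-error bound without the shift, while 13 of 40 female and 26 of 40 male ones moved by more with the median reference. Adding 10 to the level before the log was not run, because the levels of the 8 genes could not be recovered. No paired analysis was possible because each group holds 1 library. Depth may limit the gaps of Hoxb7 and Hoxb2 between segments, which are smaller than their counting-error bounds. It may also limit several of the separations by mutated cluster, as described above.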
